A study of Mus musculus with 6 samples.

Results

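The 38 genes described here encode the subunits of the BAF family of chromatin remodellers (26 genes) and of NuRD (12 genes). They were taken by symbol from a table of 51912 genes, and all 38 were matched to 1 Ensembl identifier each. R1 mouse embryonic stem cells, an established line, were grown in 2iLIF, a medium that holds them in the naive state of pluripotency, and then moved to serum-free N2B27 that held 100 ng/ml of FGF2. Libraries of messenger RNA were made from 3 replicates collected 24 h after the move and 3 collected at 48 h. Both groups had received FGF2, and libraries of cells in 2iLIF or in N2B27 without FGF2 were not analysed here, so time in FGF2, time in the new medium and time out of 2iLIF cannot be told apart. The labels do not say whether replicates were separate cultures, so p-values measure only the spread between these libraries, which may be technical.

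BAF complexes use ATP to move or evict nucleosomes. Each is built around an ATPase, Smarca4 (BRG1) or Smarca2 (BRM). The forms are a canonical one with Arid1a or Arid1b, a polybromo one (PBAF) with Arid2 and Pbrm1, and a non-canonical one with Brd9. The canonical and polybromo forms have a core of Smarcc, Smarcd, Smarcb1 and Smarce1 proteins. Many positions can be filled by paralogues: embryonic stem cells are known for a complex rich in Smarca4, Smarcc1 and Arid1a, and neurons for Actl6b, Dpf1, Dpf3 and Ss18l1 in place of Actl6a, Phf10, Dpf2 and Ss18. NuRD joins a CHD remodelling ATPase to histone deacetylases through MTA scaffolds, with either Mbd2 or Mbd3 and a GATAD2 protein, and is known to be needed for stem cells to leave self-renewal.

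Among the 38 genes the largest fall was that of Smarcd3, which was 5.82-fold lower at 48 h than at 24 h, and the minor ATPase gene Smarca2 was 1.70-fold lower. Of the genes for subunits found in the stem cell complex, Arid1a, Smarcc1, Smarcd1 and Smarca4 rose by 1.43-, 1.33-, 1.32- and 1.16-fold, while Actl6a, Smarcb1, Smarce1 and Dpf2 were not called. In NuRD, Mta3 rose by 1.54-fold, Chd4, Mbd3, Gatad2a and Mta1 rose by less, and Hdac2 and Mta2 fell. The neuronal subunit gene Actl6b had at most 1 count in any library. Of the 37 genes that could be tested, 14 did not pass the test.

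The promoters of the ATPase and SMARCD paralogues that moved in opposite directions, and of Arid1a, are shown to let their base composition be compared. The RefSeq table on build GRCm38.p6 held 36 promoter windows of 30 of the 38 genes. Each sequence is the 250 bases before an annotated start site, 5′ to 3′ on the gene's strand. For Smarcd3 this start lies inside the gene, whose annotated 5′ end is at 24624411. Which start these cells use was not tested. Capitals mark every match, on either strand, to the letters of 6 motifs. The GC box was searched as GGGCGG and the ETS site as CCGGAAG. The E-box was searched as CACGTG, and the TCF/LEF site as CTTTGA. The other motifs were CCAAT and the TATA box, TATAAA. The windows lie at chr15:99702037-99702286 on the plus strand for Smarcd1, chr5:24602003-24602252 on the minus strand for Smarcd3, chr9:21615919-21616168 on the plus strand for Smarca4, chr19:26604910-26605159 on the plus strand for Smarca2 and chr4:133756770-133757019 on the minus strand for Arid1a, whose other window in the table is not shown.
Smarcd1: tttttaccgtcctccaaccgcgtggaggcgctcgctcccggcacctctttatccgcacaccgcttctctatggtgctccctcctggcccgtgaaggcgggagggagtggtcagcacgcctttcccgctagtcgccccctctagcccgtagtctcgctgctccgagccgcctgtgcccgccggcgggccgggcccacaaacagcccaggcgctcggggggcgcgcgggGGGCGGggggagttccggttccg
Smarcd3: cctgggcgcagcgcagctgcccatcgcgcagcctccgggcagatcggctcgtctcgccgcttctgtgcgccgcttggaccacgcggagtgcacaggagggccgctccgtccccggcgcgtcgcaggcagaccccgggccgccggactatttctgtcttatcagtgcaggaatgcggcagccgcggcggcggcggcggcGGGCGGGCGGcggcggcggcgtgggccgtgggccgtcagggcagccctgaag
Smarca4: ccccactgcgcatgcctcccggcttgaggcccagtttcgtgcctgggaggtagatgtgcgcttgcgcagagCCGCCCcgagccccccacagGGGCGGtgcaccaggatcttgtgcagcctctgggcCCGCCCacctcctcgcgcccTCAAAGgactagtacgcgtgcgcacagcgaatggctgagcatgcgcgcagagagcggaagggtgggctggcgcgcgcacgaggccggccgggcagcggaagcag
Smarca2: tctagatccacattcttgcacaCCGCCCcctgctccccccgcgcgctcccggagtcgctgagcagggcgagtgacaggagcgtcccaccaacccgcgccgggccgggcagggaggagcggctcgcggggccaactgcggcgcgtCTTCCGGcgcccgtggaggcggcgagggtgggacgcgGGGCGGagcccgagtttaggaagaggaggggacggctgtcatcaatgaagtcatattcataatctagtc
Arid1a: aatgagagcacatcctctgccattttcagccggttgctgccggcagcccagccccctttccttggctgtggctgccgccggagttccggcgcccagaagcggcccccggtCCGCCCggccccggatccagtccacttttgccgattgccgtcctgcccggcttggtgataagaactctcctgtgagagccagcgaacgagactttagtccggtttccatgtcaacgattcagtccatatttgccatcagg

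All 5 windows are rich in CpG, from 18 in Arid1a to 38 in Smarcd3, and all hold at least 1 GC box. That is common to the set: a GC box was found in 88.9% of the members' windows, in 57.3% of the 13690 windows of genes tested here and in 32.7% of all 32851 windows. The median number of CpG was 24 in windows of members that rose, 27.5 in windows of members that fell and 21 in those of members not called, against 15 in windows of tested genes. The ETS letters were found in 16.7% of member windows and 13.1% of tested genes' windows. The TCF/LEF letters were found in 5.56% and 10.4%, with Smarca4 and Dpf3 as the 2 members that hold them. These matches describe the letters and are not binding sites.

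Of the 38 genes, 37 had enough counts to be tested. Library totals ran from 19574969 to 23133148 estimated counts, and the 38 genes together took 0.541% ± 0.0049 of the counts at 24 h and 0.611% ± 0.0016 at 48 h (SD, n = 3). Levels below are CPM (library-scaled counts, by TMM), and changes are log2 fold changes, 48 h over 24 h. A gene is said to have risen or fallen where edgeR's quasi-likelihood test passed 0.05 after adjustment over the 14889 genes tested. By that rule 23 of the 37 genes (62.2%) changed, a share near that of all genes (62.8%). This nearness depended on the filter and method, as given further below. Higher at 48 h were 16 members (43.2%, against 30.9% of all genes) and lower were 7 (18.9%, against 31.9%). With library size as the only scaling the split was 15 higher and 12 lower. Under that scaling 63.6% of all genes were called. Of those called, 39.9% were higher, against 49.2% with TMM. Called changes of at least 0.5 on the log2 scale were seen in 5 members (13.5%, against 24.9% of all genes), and the median size of change was 0.22, against 0.26 for all genes. The 2 time groups did not overlap for 25 of the 37 (67.6%, against 66.9%). In bulk RNA, a change in RNA per cell and a change in the share of cells with that RNA cannot be told apart.

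**Figure D1:**
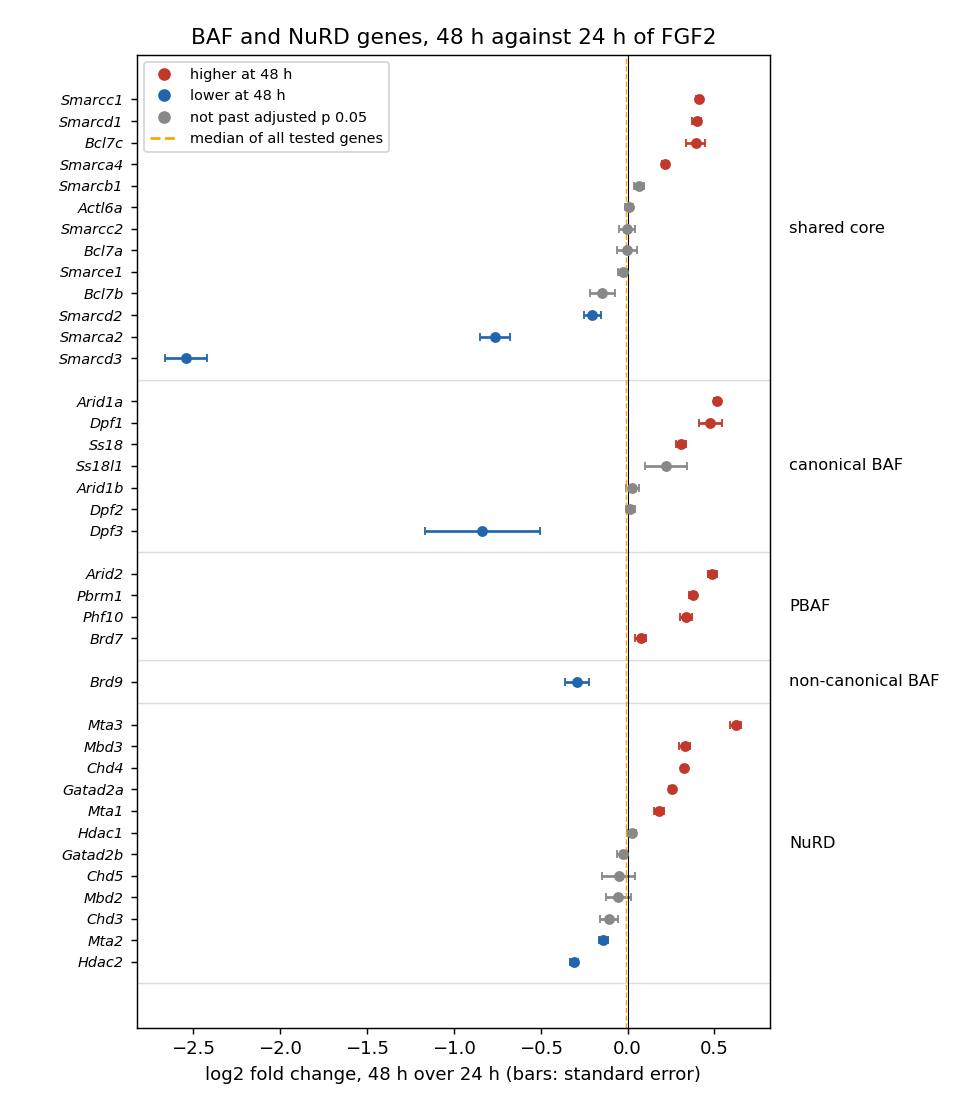
Log2 fold change (48 h over 24 h, horizontal axis) of the 37 tested genes, ordered within each complex, with bars for the standard error; red and blue points passed an adjusted p of 0.05 and grey points did not. Most points lie between -0.5 and 0.7, with Smarcd3 at -2.54, Dpf3 at -0.84 and Smarca2 at -0.76 apart on the left.

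The cells carried pluripotency transcripts at both times. All 10 pluripotent cell markers were tested, 7 of them lower and 3 higher at 48 h, with a summed level of 5522 to 5572 CPM at 24 h and 4094 to 4162 CPM at 48 h. Fibroblast or feeder markers, of which 4 of 8 could be tested (2 higher, 1 lower), summed to 4.64 to 5.51 CPM at 24 h and 5.52 to 7.76 CPM at 48 h, with Postn and Lum at 0 counts in all libraries and Dcn at 0 in the 24 h libraries. Primitive endoderm markers summed to 6.46 to 8.30 and then 3.43 to 3.82 CPM (2 of 6 tested, 1 lower). Primitive streak markers summed to 15.7 to 18.5 and then 12.8 to 14.8 CPM (1 of 5 tested, lower). The 9 neuron markers (7 tested, 3 higher, 1 lower) summed to 177 to 179 CPM at 24 h and 122 to 127 CPM at 48 h, most of it Stmn2, which fell from 156 ± 0.87 to 95.3 ± 3.75 CPM. Map2, Elavl3 and Elavl4 rose, to at most 6.67 CPM in any library. The part of any other cell type in the results below was not tested.

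The SMARCD position showed the widest divergence between paralogues. These proteins (BAF60a, b and c) link the core to transcription factors, and Smarcd3 is best known from heart and muscle. Smarcd3 (ENSMUSG00000028949, GRCm38 chromosome 5, 24590818 to 24624411) measured 13.6, 11.96 and 13.5 CPM in the 24 h libraries and 2.62, 2.06 and 2.03 CPM in the 48 h libraries. Every 48 h library was far below every 24 h library, and the log2 fold change was -2.54 ± 0.12 (standard error; adjusted p = 1.13e-11). Exons of Smarcd3 share 2564 of 5120 bp with genes on the other strand, mainly Chpf2, and whether reads were counted by strand is not given in the sources used here. Chpf2 itself measured 9.22 ± 0.617 CPM at 24 h and 6.81 ± 0.920 CPM at 48 h (SD, n = 3) and had a smaller decrease, -0.43 on the log2 scale. Its part in the value of Smarcd3 was not tested.

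Smarcd1, the main paralogue, moved the other way. It measured 221, 239 and 222 CPM at 24 h and 304, 299 and 296 CPM at 48 h, again with no overlap (log2 fold change 0.40 ± 0.03, adjusted p = 1.35e-09). Smarcd2, the paralogue known for its role in granulocytes, measured 45.4, 44.2 and 47.55 CPM and then 42.8, 38.7 and 37.8 CPM. That is a small fall (-0.20 ± 0.05, adjusted p = 0.00177). Within each library the ratio of Smarcd1 to Smarcd3 counts was 16.2, 19.9 and 16.4 at 24 h and 115, 144 and 144 at 48 h. Expressed per kilobase of the longest coding transcript, Smarcd3 made up 8.10% ± 0.75 of the position at 24 h and 1.21% ± 0.15 at 48 h (SD, n = 3), and Smarcd1 74.0% and 85.2%. With merged exons as the length, the shares were 3.56% and 0.51% for Smarcd3 and 78.7% and 86.6% for Smarcd1.

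The ATPase genes diverged in the same sense. Smarca4 (chromosome 9, 21616169 to 21704230) measured 354, 343 and 347 CPM at 24 h and 399.5, 407 and 406 CPM at 48 h. Smarca2 (chromosome 19, 26605050 to 26778322) measured 17.2, 15.5 and 15.6 CPM and then 9.67, 8.55 and 10.2 CPM. The groups did not overlap for either gene: Smarca4 rose by 0.22 ± 0.02 (adjusted p = 3.62e-08) and Smarca2 had a log2 fold change of -0.76 ± 0.09 (adjusted p = 8.57e-07). Per kilobase of coding transcript, Smarca4 was 20.1 times as abundant as Smarca2 at 24 h and 39.6 times at 48 h. With merged exons as the length, the values were 47.6 and 94.0.

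Among the SMARCC scaffold genes, Smarcc1 (BAF155) measured 487 ± 5.05 CPM at 24 h and 647 ± 5.99 CPM at 48 h (SD, n = 3) and rose by 0.41 ± 0.02 (adjusted p = 1.81e-12). Its paralogue Smarcc2 (BAF170), which is known to gain ground as neural progenitors form, measured 41.0 ± 1.502 and 40.9 ± 2.17 CPM and was not called (adjusted p = 0.97). Smarcc2 therefore held 9.62% ± 0.23 of the position per coding length at 24 h and 7.40% ± 0.31 at 48 h. The single-copy core genes Smarcb1 and Smarce1 were not called, with log2 fold changes of 0.06 (adjusted p = 0.0657) and -0.03 (adjusted p = 0.438). Smarcb1 was called with RLE scaling (0.07, adjusted p = 0.0422) and, at adjusted p = 0.0326, in the fit that left out the first 24 h library.

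**Figure D2:**
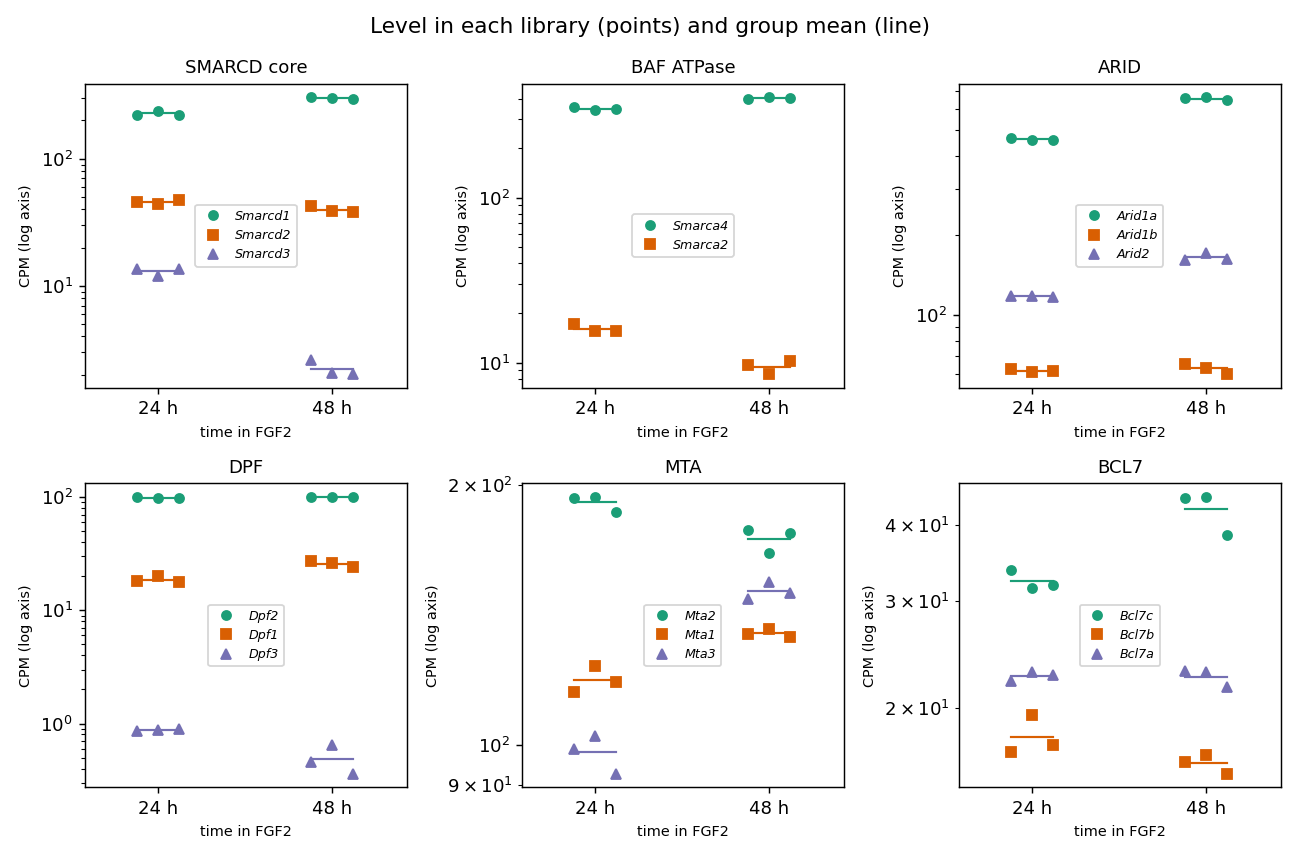
CPM on a log axis (a separate range in each panel) in each of the 3 libraries at 24 h and 48 h, with a line for the group mean, for 6 paralogue groups. Smarcd3 and Smarca2 lie lower at 48 h while Smarcd1 and Smarca4 lie higher, Mta3 lies higher, and Dpf3 stays near or below 1 CPM.

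The actin-related and BCL7 subunits complete the shared core. Actl6a (BAF53a), present in stem and progenitor cells, measured 186 ± 0.44 and 187 ± 4.10 CPM and was not called (adjusted p = 0.835). Its neuronal counterpart Actl6b (BAF53b) had 1 count in 1 library at each time and 0 in the other 4, where a count of 0 allows up to 3 counts, or at most 0.150 CPM. That limit covers counting error only. Bcl7c measured 33.7, 31.5 and 31.8 CPM at 24 h and 44.4, 44.4 and 38.5 CPM at 48 h and rose by 0.39 ± 0.05 (adjusted p = 9.92e-06). Bcl7b measured 16.9, 19.4 and 17.3 CPM and then 16.2, 16.7 and 15.6 CPM, a difference that did not pass (-0.14 ± 0.07, adjusted p = 0.0918). Bcl7a stood at 22.5 CPM at both times. Which BCL7 gene led per length depended on the length used.

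The subunits of the canonical form include the ARID proteins, which contact DNA. Arid1a (chromosome 4, 133679008 to 133756769) measured 465, 459.6 and 457 CPM at 24 h and 659.9, 663 and 648 CPM at 48 h. All 3 later libraries were higher by about the same amount, and the gene had the lowest adjusted p of the 38 (log2 fold change 0.51 ± 0.02, adjusted p = 1.39e-13). Arid1b, which can replace it, measured 61.8 ± 0.87 and 63.1 ± 2.73 CPM (adjusted p = 0.532). The ratio of Arid1a to Arid1b counts was 7.41, 7.52 and 7.42 at 24 h and 10.1, 10.4 and 10.8 at 48 h.

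Ss18, the subunit known from the fusion of synovial sarcoma, rose from 163 ± 7.004 to 201 ± 1.203 CPM (0.31 ± 0.03, adjusted p = 6.33e-08). Its neuronal paralogue Ss18l1 (CREST) stayed between 5.18 and 7.23 CPM and was not called (0.22 ± 0.12, adjusted p = 0.115). It was called without replicate 2 of 48 h (0.33, adjusted p = 0.0264). The counts of Ss18 were fractional, as were those of Smarce1, Arid2, Chd3, Chd4 and Hdac1, so reads shared with similar genes enter these values.

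The DPF genes encode histone-reading PHD finger proteins. Dpf2, the form of stem and most other cells, measured 99.7, 98.4 and 97.98 CPM at 24 h and 99.5, 100.01 and 99.8 CPM at 48 h, with no call (adjusted p = 0.639). The other members of the family are the neuronal forms, and they differed in direction. Dpf1 rose from 18.6 ± 1.15 to 25.9 ± 1.63 CPM (SD, n = 3; 0.48 ± 0.07, adjusted p = 7.74e-06). Dpf3 was near the limit of detection, with 17, 18 and 21 counts at 24 h and 10, 14 and 8 counts at 48 h. Its log2 fold change of -0.84 ± 0.33 passed narrowly (adjusted p = 0.0368). The call was lost with the replicate number as a block (adjusted p = 0.0562), with DESeq2 (0.146) and in 5 of 6 fits that left out 1 library.

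The subunits particular to PBAF were higher at 48 h in 4 of 4 cases, against 30.9% of all genes, although the call of Brd7 was lost in 7 of 16 alternatives. Arid2, Pbrm1 and Brd7 lay at or above 100 CPM on average, where 55.6% of all genes were higher. Arid2 measured 118, 119 and 117 CPM at 24 h and 161, 172 and 163 CPM at 48 h (0.49 ± 0.03, adjusted p = 1.7e-10). Pbrm1 (BAF180), which carries a row of bromodomains that read acetylated histones, rose from 172 ± 0.75 to 224 ± 3.23 CPM (0.37 ± 0.02, adjusted p = 1.98e-10). Phf10, the PHD finger subunit, rose by 0.34 ± 0.03 and Brd7 by 0.08 ± 0.03 (adjusted p = 3.23e-07 and 0.036). The 7 alternatives without a call of Brd7 included library size as the only scaling (0.01, adjusted p = 0.676) and 5 of 6 fits that left out 1 library. Exons of Phf10 and Pbrm1 overlap those of genes on the other strand, by 470 and 15 bp.

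Arid1a and Arid2 mark the canonical and polybromo forms, and their ratio was 3.95, 3.87 and 3.90 at 24 h and 4.10, 3.86 and 3.97 at 48 h. These ranges overlap, while the genes themselves rose by 1.43- and 1.40-fold. Brd9, the bromodomain subunit of the non-canonical form, moved the other way, from 32.2, 30.2 and 33.5 CPM to 23.8, 25.3 and 29.4 CPM (-0.29 ± 0.07, adjusted p = 0.00124). The lowest 24 h library and the highest 48 h library lay close together. Of the subunit genes of the non-canonical form that are not among the 38, Bicral fell from 222 ± 4.25 to 138 ± 2.56 CPM (-0.69 ± 0.02, adjusted p = 3.38e-13). Bicra measured 22.9 ± 1.14 and 22.6 ± 1.37 CPM and was not called (adjusted p = 0.818). Among the 38, only Brd9 was assigned to this form alone, so these values do not describe the form as a whole.

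In NuRD, 7 of 12 genes were called (58.3%, against 62.8% of all genes), 5 higher and 2 lower, with a median log2 fold change of -0.0014. The corresponding count in the BAF family was 16 of 25 tested genes (64%), 11 higher and 5 lower, with a median of 0.06. The median of all tested genes was -0.0063.

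Chd4, the main remodelling ATPase of NuRD in stem cells, had the highest level of the 38 genes per coding length, 133 CPM per kilobase at 24 h and 167 at 48 h. It measured 902, 895 and 879 CPM at 24 h and 1119, 1117 and 1122 CPM at 48 h (0.33 ± 0.02, adjusted p = 8.74e-12). Chd3 and the mainly neuronal Chd5 stayed low, at 29.2 ± 0.61 and 27.1 ± 1.48 CPM and at 7.98 ± 0.74 and 7.69 ± 0.27 CPM, and neither was called (adjusted p = 0.081 and 0.669). Per coding length Chd4 held 96.5% of the 3 genes at 24 h and 97.4% at 48 h.

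The MTA scaffolds were the NuRD position with the largest difference in makeup. Mta3 (chromosome 17, 83706163 to 83821516) measured 99.1, 103 and 92.8 CPM at 24 h and 148, 155 and 150.3 CPM at 48 h. It had the largest increase of the 38 genes (0.62 ± 0.03, adjusted p = 8.31e-11). Mta2 measured 193, 194 and 186 CPM and then 177, 167 and 176 CPM, a small fall with no overlap (-0.14 ± 0.03, adjusted p = 0.000309). Mta1 rose from 119 ± 4.23 to 135 ± 1.44 CPM (0.18 ± 0.03, adjusted p = 4.58e-05). The ratio of Mta2 to Mta3 counts was 1.95, 1.89 and 2.01 at 24 h and 1.201, 1.08 and 1.17 at 48 h. Per coding length, Mta2 held 43.6% ± 0.64, Mta1 30.1% ± 0.84 and Mta3 26.3% ± 0.64 of the position at 24 h (SD, n = 3). At 48 h the shares were 34.7% ± 1.11, 29.9% ± 0.35 and 35.4% ± 0.82, and those of Mta2 and Mta3 lay within 1 SD of each other. With merged exons as the length, the shares at 48 h were 37.1% for Mta2, 38.04% for Mta1 and 24.8% for Mta3.

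The deacetylase genes also parted. Hdac1 measured 190.2, 183 and 184 CPM at 24 h and 186, 193 and 187 CPM at 48 h, with no call (adjusted p = 0.408). Hdac2 measured 277, 287 and 279.9 CPM and then 224, 226 and 233 CPM (-0.31 ± 0.02, adjusted p = 3.42e-09). Their ratio, Hdac1 to Hdac2, was 0.686, 0.637 and 0.656 at 24 h and 0.831, 0.857 and 0.803 at 48 h.

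Mbd3 and Mbd2 define separate NuRD complexes, of which the Mbd2 form binds methylated DNA. Mbd3 rose from 101 ± 2.63 to 127 ± 3.30 CPM (SD, n = 3; 0.33 ± 0.03, adjusted p = 6.05e-08), whereas Mbd2 measured 15.7 ± 0.09 and 15.2 ± 0.81 CPM and was not called (adjusted p = 0.536). Of the GATAD2 proteins, which bridge the MBD and CHD subunits, Gatad2a rose from 288 ± 1.43 to 344 ± 2.17 CPM (0.26 ± 0.02, adjusted p = 2.82e-09). Gatad2b measured 151 ± 6.85 and 149 ± 4.75 CPM (adjusted p = 0.487).

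**Figure D3:**
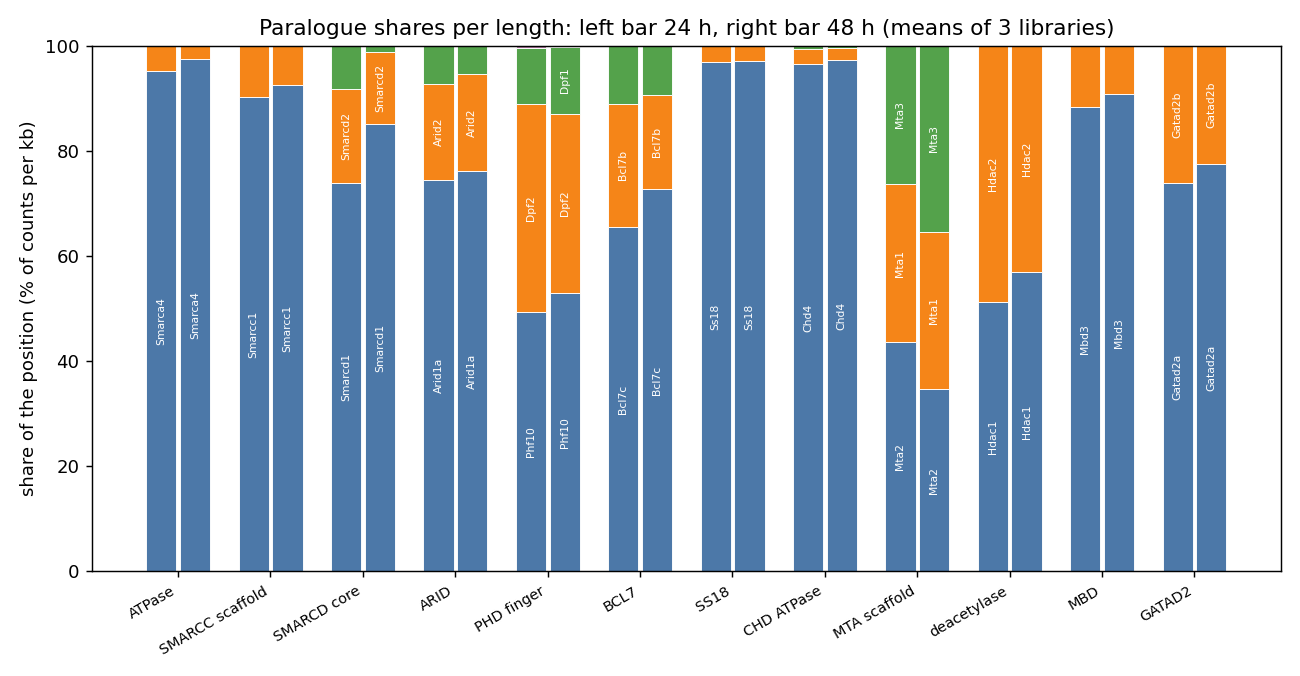
Share of each subunit position held by its paralogues (percent of counts per kilobase of the longest coding transcript, mean of 3 libraries), with 24 h as the left and 48 h as the right bar of each position. The SMARCD, MTA, BCL7 and deacetylase bars differ most between the times, and unlabelled segments are minor paralogues such as Smarcd3 (8.10% and 1.21%) and Smarca2.

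The paralogue ratios were compared over the libraries, since a ratio within a library needs no scaling and is free of gene length in its change. Of 21 pairs listed, 20 had both genes tested. The ratios of the time groups did not overlap for 18 of the 20. Single genes did not overlap in 66.9% of all those tested, and the share for ratios of other gene pairs was not computed. An exact two-sided permutation test gave p = 0.1 for each of these 18, the smallest value that 3 against 3 libraries allow, and 0.111 after adjustment over the 20 pairs, so no pair could pass 0.05. The pairs that overlapped were Ss18 with Ss18l1 (exact p = 0.7) and Arid1a with Arid2 (exact p = 0.5).

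For 15 of those 18 pairs the same gene led per length at 24 h under both measures of length. In 11 of the 15 the ratio of the leading gene to its paralogue was larger at 48 h. These were Smarcd1 over Smarcd3 and over Smarcd2, Smarca4 over Smarca2, Dpf2 over Dpf3, Arid1a over Arid1b, Chd4 over Chd3 and over Chd5, Smarcc1 over Smarcc2, Mbd3 over Mbd2, Brd7 over Brd9 and Gatad2a over Gatad2b. The factor by which the ratio grew ran from 1.22 for Gatad2a over Gatad2b to 7.66 for Smarcd1 over Smarcd3. In the other 4 the ratio of the leading gene to its paralogue was smaller at 48 h: Mta2 to Mta3 and to Mta1, Dpf2 to Dpf1, and Bcl7b to Bcl7a. Whether Mta2 still led at 48 h depended on the length used. Per coding length it no longer led Mta3 (ratio 1.66 at 24 h and 0.981 at 48 h) but still led Mta1 (1.16 at 48 h). Per merged exon length it no longer led Mta1 (1.22 and 0.976) but still led Mta3 (1.49 at 48 h). Several pairs share a gene and are not independent. Of the 19 members at or above 100 CPM on average over the 6 libraries, 13 rose, 2 fell and 4 were not called; of all 2437 genes at that level, 55.6% were higher and 26.1% lower. Of the 18 tested members below it, 3 rose, 5 fell and 10 were not called; of all 12452 genes below it, 26.1% were higher and 33% lower.

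**Figure D4:**
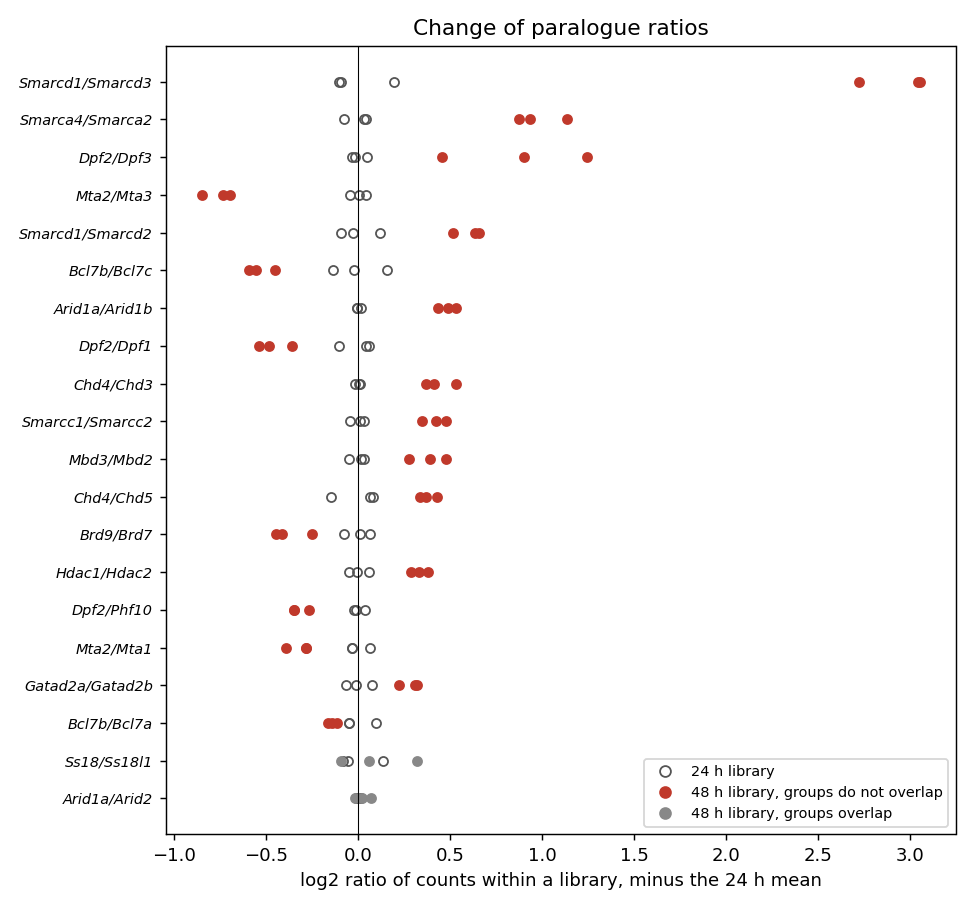
Log2 ratio of the counts of the first gene to the second within each library, minus the mean of the 24 h libraries, for the 20 pairs (open circles 24 h, filled circles 48 h, grey where the time groups overlap). The filled points of Smarcd1/Smarcd3 lie furthest from 0, and those of Ss18/Ss18l1 and Arid1a/Arid2 overlap the open ones in range.

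Other subunits and partners of the same complexes, from a list of 9 genes, were called in 8 cases, 6 higher (66.7%, against 30.9% of all genes) and 2 lower (22.2%, against 31.9%). Bicral, Actb, Rbbp4, Rbbp7 and Cdk2ap1 lay at or above 100 CPM on average, where 55.6% of all genes were higher and 26.1% lower. The largest increases were those of the zinc finger genes Bcl11a, from 9.12 ± 1.07 to 41.3 ± 2.28 CPM (SD, n = 3; 2.19 ± 0.07, adjusted p = 1.74e-13), and Bcl11b, from 2.25 ± 0.495 to 9.35 ± 0.25 CPM (2.07 ± 0.13, adjusted p = 8.98e-10). Both encode dedicated BAF subunits of neural and lymphoid cells. In NuRD, Cdk2ap1 rose from 114 ± 2.80 to 195 ± 1.69 CPM (0.78 ± 0.03) and its paralogue Cdk2ap2 had a log2 fold change of -0.70 ± 0.07, from 23.2 ± 1.65 to 14.3 ± 0.91 CPM (adjusted p = 9.7e-14 and 3.35e-07). The histone-binding genes Rbbp4 and Rbbp7 rose by 0.17 and 0.18. Actb, whose product is part of BAF complexes as well as the cytoskeleton, rose by 0.28.

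Of 24 genes for ISWI, INO80, other CHD and other SNF2 proteins, 16 were higher (66.7%, against 30.9% of all genes) and 4 lower (16.7%, against 31.9%). Their median change on the log2 scale was 0.18, against -0.0063 for all genes. Most of the 24 lay at or above 100 CPM on average, where 55.6% of all genes were higher and 26.1% lower. The largest increases were those of Chd7 (109 ± 2.55 to 216 ± 2.99 CPM, 0.99 ± 0.03), Chd9 (222 ± 10.8 to 425 ± 6.05 CPM, 0.94 ± 0.03) and Hells (494 ± 10.1 to 877 ± 6.47 CPM, 0.83 ± 0.02), the last being a remodeller needed for DNA methylation. The largest decreases were those of Baz2b (78.8 ± 2.79 to 39.1 ± 0.07 CPM, -1.01 ± 0.04), Chd2 (-0.40 ± 0.02) and Chd1l (-0.11 ± 0.04). The adjusted p-values of these 6 genes were at most 0.019. Smarca5, an ISWI ATPase gene, measured 698 ± 5.87 and 702 ± 8.55 CPM and was not called (adjusted p = 0.68), while its paralogue Smarca1 rose from 22.1 ± 0.48 to 31.6 ± 0.30 CPM.

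**Figure D5:**
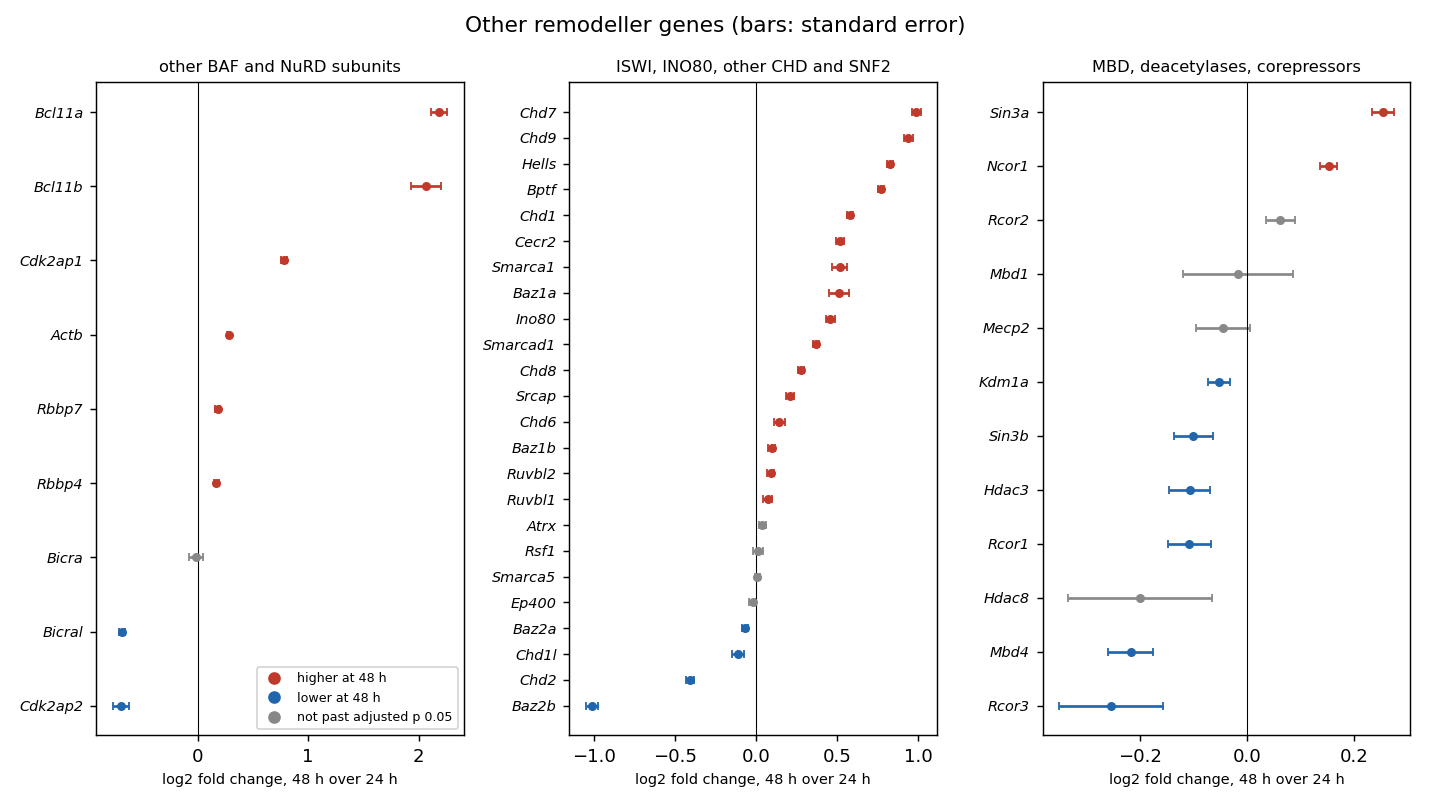
Log2 fold change (48 h over 24 h, bars for the standard error, a separate range in each panel) of other BAF and NuRD subunits, other remodellers, and MBD proteins, deacetylases and corepressors; colours as in the plot of the 37 genes (red higher, blue lower, grey not called). Bcl11a and Bcl11b lie above 2 and most of the remodellers in the middle panel lie right of 0.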

How the data were processed

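The members and gene lists were chosen with earlier results of these data known. The authors deposited estimated counts per gene, 1 column per sample, not scaled for depth or length. Per the submitters' processing notes, cutadapt 1.9.1, STAR 2.5.2, RSEM 1.3.0 and GRCm38 were used; the annotation, strand setting and filters are not given in the sources used here. RSEM shares out multi-mapped reads, so counts can be fractional (6 of the 38 members, by more than 0.005 from a whole number). Symbols, positions and lengths came from GENCODE M21 (GRCm38), which named 51633 of 51912 identifiers.

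Counts were rounded and filtered by filterByExpr (minimum count 10), which left 14889 genes. They were scaled by TMM and compared by edgeR's quasi-likelihood test (edgeR 4.0.16 in R 4.3.3), with time group alone in the model, and Benjamini-Hochberg adjustment over all tested genes. The standard error is the size of the log2 fold change divided by the square root of F. Levels between genes were compared per kilobase of the longest protein-coding transcript, and per kilobase of merged exons as a check. Ratios used counts plus 0.5. The test was checked on simulated data. Values in every library are given for members called with a change of at least 0.5 and for the 6 pairs with the largest change in ratio, and for some others by role. From the lists of other chromatin genes, up to 3 called genes in each direction were named, and any gene of the list of other subunits; Smarca5 and Smarca1 were named after their values were seen. One gene of these lists is not reported here. Alternatives were RLE, upper quartile and library size scaling, 2 other filters, DESeq2 1.42.0, limma voom 3.58.1, unrounded counts, a replicate block, a threshold of 0.01, a ratio pseudocount of 2 and leaving out each library.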

Additional observations from a re-analysis of the deposited data

How the results depend on the processing

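Of the 23 called members, 21 kept direction and call in every alternative that tested them, and Dpf3 and Brd7 lost the call in some; none reversed. Dpf3 dropped out under the stricter of the filters (10 counts in every library). The count of called members ranged from 21 to 27 over the alternatives, and the count of all genes from 7810 to 9792. The number of genes tested differed too. Where every gene of at least 1 count was kept, 22 of 38 members were called, against 37.4% of all 26148. DESeq2 called 22 of 37 members, against 44.5% of 19048. Under the stricter filter the values were 22 of 36 members and 65.7% of 13436. How near the members' share lay to that of all genes thus depended on filter and method. With library size as the only scaling, which moved the median of all tested genes from -0.0063 to -0.07, 12 members were lower, the members' median was -0.032, and Arid1b (-0.032), Dpf2 (-0.045), Actl6a (-0.054, adjusted p = 0.049) and Hdac1 (-0.036) reversed; Smarce1, Bcl7b, Chd3 and Gatad2b gained a call there. Smarcc2 and Bcl7a reversed with RLE (0.0050 and 0.0038) and with DESeq2 (0.0054 and 0.0047). Across the fits that left out 1 library, ranges were 0.024 to 0.049 for the members' median (highest without replicate 3 of 48 h), -0.044 to 0.032 for Smarcc2, -0.018 to 0.025 for Bcl7a, -0.099 to 0.025 for Chd5, -0.061 to 0.0012 for Gatad2b, -0.0027 to 0.027 for Actl6a, and -0.018 to 0.19 for the log2 ratio of Ss18 to Ss18l1. None of these 5 genes was called in those fits. The other 19 pairs kept the sign of their change throughout. With the replicate block, 22 members and 9235 genes were called, 9138 of the latter shared with the fit without it, and Dpf3 (-0.85, adjusted p = 0.0562) was the member that lost its call. Deviations of same-numbered libraries from their group means correlated at -0.04, -0.03 and -0.02, which gives no sign that the numbers pair samples. Depth limits Actl6b, which could not be tested, and Dpf3, with at most 21 counts in a library. The cause was not tested.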

Other observations

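Of 12 genes for other methyl-binding proteins, class I deacetylases and their corepressors, 2 rose (16.7%, against 30.9% of all genes) and 6 fell (50%, against 31.9%), and the median log2 fold change was -0.08, against -0.0063 for all genes. Sin3a, the scaffold of another deacetylase complex, rose from 232 ± 3.19 to 276 ± 3.93 CPM (SD, n = 3; 0.25 ± 0.02, adjusted p = 1.75e-08), and the nuclear receptor corepressor gene Ncor1 rose by 0.15. Rcor3 (-0.25 ± 0.10), Mbd4 (-0.22 ± 0.04) and Rcor1 (-0.11 ± 0.04) had the largest decreases that passed, with adjusted p-values of 0.0321, 0.000271 and 0.0273. Exons of Sin3a, Ncor1, Mbd4 and Rcor3 overlap genes on the other strand.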
